A study of Rattus norvegicus with 82 samples.

Results

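Rats given 1 intravenous dose of vinblastine at 0.5 mg/kg were compared with rats given saline, both with the heart taken 6 h after dosing. Members were chosen by the sample titles alone, and they were 12 of the 82 arrays of the series, 6 with vinblastine and 6 with saline. The series covers hearts of male Wistar (Crl:Wi(Han)) rats after vinblastine (0.5 and 3 mg/kg), vincristine (0.1 and 1 mg/kg), colchicine (0.2 and 2 mg/kg) or 0.9% saline, the vehicle of all compounds, at 6 or 24 h. Total RNA of each heart was hybridised to an Affymetrix expression array, and each array came from 1 animal, so that the spread within a group is the spread between animals. The rats' age is not stated here, and the labels name no allele or transgene. Also compared were vinblastine 3 mg/kg at 6 h, vinblastine 0.5 mg/kg at 24 h and saline at 24 h, with 6 animals each. For the other compounds, levels at 6 h are given without a comparison. All 82 arrays entered the gene filter, the choice of probe set, the distances between arrays and the alternative fits to all arrays.

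Vinblastine is an alkaloid of the periwinkle that binds tubulin dimers and stops them from assembling into microtubules. Cells sense free tubulin dimers: when microtubules come apart, TTC5 recognises the beginning of a nascent tubulin chain on the ribosome and, through SCAPER and the CCR4-NOT deadenylase, has the messenger RNA degraded, a feedback known as tubulin autoregulation from work in mammalian cell lines. In the heart, microtubules run through the muscle cells, and drugs of this class are known to be toxic to it.

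Values were intensities on a linear scale, normalised by the authors, and tests were run on log2(intensity + 16) with limma over 11319 genes, with Benjamini-Hochberg adjustment over all of them and a threshold of 0.05. The 12 arrays had medians between 60.1 and 63.3, and each correlated with the rest of its group at 0.982 to 0.990 on average. One array stood apart. The array labelled vinblastine 0.5 mg/kg, 6 h, replicate 6 lay at a root mean square log2 distance of 0.290 from the median profile of its own group, against 0.153 from that of the colchicine 2 mg/kg, 6 h group. The ratio of 1.89 was over the limit of 1.3 used here, and 10 arrays of the series exceeded that limit. Whether samples were exchanged was not tested. Results are given with all 12 arrays and, where they rest on this array, without it. Of the 16 cardiomyocyte markers 15 were tested and none passed the threshold. Their summed intensity was 246061 to 269952 in vinblastine hearts, against 226668 to 282120 in saline hearts.

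At 6 h after vinblastine 0.5 mg/kg, the genes that passed the test in the fit to the 12 arrays were all tubulins. A set of 6 genes differed at an adjusted limma p under 0.05, 0.053% of the genes tested. All of them were lower after vinblastine: Tuba4a, Tubb4b, Tuba8, Tubb5, Tubg1 and Tubb2a. The count of genes that passed the threshold as higher was 0. At an unadjusted p under 0.05 there were 570 genes, 381 higher (3.37% of those tested) and 189 lower (1.67%), where 566 would be there by chance. In a fit to all 82 arrays as labelled, where groups of other compounds set the spread, 4 genes passed (0.0353%). They were Tuba4a, Tubb4b and Tubg1 as lower and Polr3b as higher, while Tuba8 (adjusted p = 0.0821), Tubb5 (0.0788) and Tubb2a (0.905) did not. In that fit without the 10 arrays standing apart, 10 genes passed (0.0883%), the 6 tubulins and Apol3l1, Slc26a10, Polr3b and Usp39. Because whole hearts were measured, fewer cells of a type and less RNA per cell cannot be told apart.

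**Figure D1:**
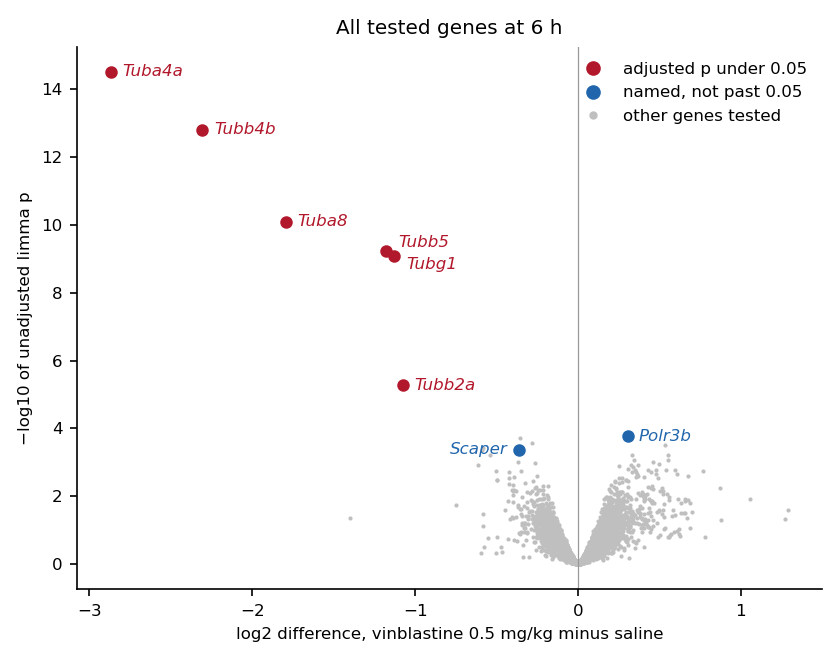
Each point is 1 of the 11319 genes tested, with the log2 difference of vinblastine 0.5 mg/kg minus saline at 6 h on the horizontal axis and the −log10 of the unadjusted limma p on the vertical axis. The 6 genes past the adjusted threshold, in red, are tubulins and lie on the left between -1.07 and -2.87, clear of the other genes; Polr3b and Scaper, in blue, did not pass.

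Among the alpha tubulins, the partners of beta tubulin in every dimer, Tuba4a fell furthest. Its intensity in vinblastine hearts had a lowest value of 554, a median of 741 and a highest value of 817, against 4732, 5187 and 6258 in saline hearts. The highest vinblastine animal was thus far below the lowest saline animal, and the groups did not overlap. The means were 720.2 ± 87.8 after vinblastine and 5341 ± 571 after saline (SD, n = 6 each), so that 13.5% of the saline level was left. The log2 difference was -2.87 ± 0.09 (SE, 95% interval -3.07 to -2.67, limma adjusted p = 3.59e-11).

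Tuba8, an alpha tubulin of striated muscle and testis, had a lowest value of 499.5, a median of 646 and a highest value of 726 after vinblastine, against 1760.5, 2294 and 2836 after saline. The groups did not overlap, and 28.1% of the saline mean was left. The log2 difference was -1.79 ± 0.12 (limma adjusted p = 3.11e-07). The genes Tuba1a, Tuba1b and Tuba1c are represented only by a probe set annotated to all 3 together, so they were tested jointly, in a fit over 20526 probe sets. That probe set averaged 2890.3 ± 543 in vinblastine hearts and 7346 ± 1055 in saline hearts (SD, n = 6 each), a log2 difference of -1.35 ± 0.13 (limma adjusted p = 0.000129). In that fit 7 probe sets passed, 0.0341% of those tested and all lower.

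Among the beta tubulins, Tubb4b, a broadly expressed isotype, changed most. Its intensity after vinblastine had a lowest value of 508, a median of 676 and a highest value of 709, against 2802, 3256 and 3994 after saline, again with no overlap. The means were 655 ± 73.4 after vinblastine and 3306 ± 436 after saline (SD, n = 6 each), so that 19.8% of the saline level was left. The log2 difference was -2.31 ± 0.10 (limma adjusted p = 9.26e-10). Tubb5, the main beta tubulin of many cells, ranged from 477 to 581 after vinblastine, with a median of 522, against 945 to 1356 with a median of 1227 after saline. Its log2 difference was -1.18 ± 0.09 (limma adjusted p = 1.64e-06). Tubb2a, a beta tubulin abundant in brain, ranged from 240.3 to 506 with a median of 430.5 after vinblastine, against 670.1 to 1084 with a median of 817 after saline. Its log2 difference was -1.07 ± 0.16 (limma adjusted p = 0.0101). Its call was lost without the arrays whose description ends in _2 (adjusted p = 0.0626) and in the fit to all 82 arrays. For Tubb5 and Tubb2a as well, every vinblastine animal lay below every saline animal.

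**Figure D2:**
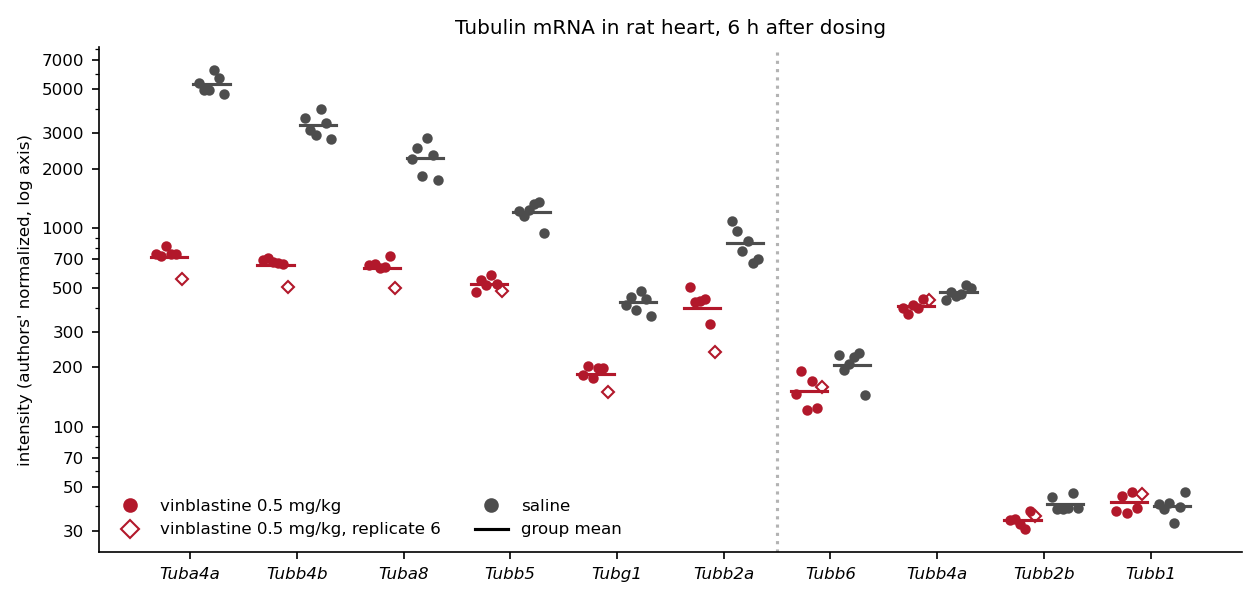
Intensity on a log axis for 10 tubulin genes in each animal at 6 h, with vinblastine 0.5 mg/kg in red left of saline in grey, lines for the group means and an open diamond for vinblastine replicate 6. Left of the dotted line, the 6 genes past the threshold show no overlap between groups; right of it are 4 beta tubulins that did not pass.

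Not every beta tubulin on the array passed the threshold. Tubb6, a beta tubulin of several non-neuronal tissues, averaged 153 ± 26.8 after vinblastine and 206 ± 33.5 after saline (SD, n = 6 each), a log2 difference of -0.40 ± 0.12 that did not pass (limma adjusted p = 0.775). Tubb4a, best known from the nervous system, had a log2 difference of -0.22 ± 0.07 (adjusted p = 0.799), and 5 of 6 vinblastine animals were below all saline animals. The neuronal isotype Tubb2b was dim, at 34.4 ± 2.58 after vinblastine and 41.1 ± 3.53 after saline, with no overlap between groups and a log2 difference of -0.18 ± 0.06 that did not pass (adjusted p = 0.892). Tubb1, the beta tubulin of platelets and megakaryocytes, was dim as well, with 37.3 to 47.4 after vinblastine and 33.2 to 47.4 after saline, overlapping ranges and a log2 difference of 0.05 ± 0.07 (adjusted p = 0.951).

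Counted over the family, 16 alpha and beta tubulins were listed and 9 could be tested as single genes. Of these, 5 passed the threshold as lower, where 0.053% of all genes did, and none as higher. The median log2 difference of the 9 was -1.07, against 0.02 over all genes tested. At an unadjusted p under 0.05, 8 of the 9 were lower, where 1.67% of all genes were. The exception was Tubb1. It was dim, but so was Tubb2b, which is counted among the 8. Groups without overlap, vinblastine below saline, were found for 6 of the 9, where 0.141% of all genes showed this. Not every probe set of a tubulin gave the same value. A second probe set of Tubb5 had a log2 difference of -0.73 ± 0.14 (limma adjusted p = 0.211 over probe sets). Tubb4a, counted above by its brightest probe set, had further ones with -0.09 ± 0.07 and -0.01 ± 0.09 (adjusted p = 0.990 and 0.998). A pair of probe sets annotated to both Tubb4b and C7 gave 0.10 ± 0.14 and 0.02 ± 0.12, far from the value of the probe set annotated to Tubb4b alone. Beta tubulin genes resemble each other closely, and which transcripts each probe set captures was not tested.

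Tubg1 encodes gamma tubulin, which does not enter the microtubule wall but nucleates microtubules as the core of the gamma tubulin ring complex. Its intensity ranged from 151 to 204 with a median of 191 after vinblastine, against 364 to 484 with a median of 428 after saline, and the groups did not overlap. The means were 186 ± 19.9 after vinblastine and 424 ± 44.3 after saline (SD, n = 6 each), and the log2 difference was -1.13 ± 0.09 (limma adjusted p = 1.86e-06). It was the only one of the 10 tested genes of the ring complex list that passed. The other 9 had log2 differences between -0.07 and 0.15, with Nedd1, which attaches the complex to the spindle, at the upper end (0.15 ± 0.09, adjusted p = 0.935). At the lower end was Tube1, which encodes epsilon tubulin and was counted in this list. The median of the whole list was -0.02.

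The start regions of these genes are shown because 6 genes on different chromosomes fell together. For Tuba4a, Tubb4b and Tuba8, the 3 with the largest falls, the 250 bases before and 50 bases after the annotated start of the gene (RefSeq, build GRCr8) are given, 5′ to 3′ on the strand of the gene. They lie at chr9:84162535-84162834 on the minus strand, chr3:28438406-28438705 on the minus strand and chr4:156112022-156112321 on the plus strand. Capitals mark 3 motifs searched on both strands. The CCAAT box was taken as the letters CCAAT. The GC box, bound by factors of the Sp1 family, was taken as GGGCGG. The TATA box was taken as the letters TATAAA.
Tuba4a: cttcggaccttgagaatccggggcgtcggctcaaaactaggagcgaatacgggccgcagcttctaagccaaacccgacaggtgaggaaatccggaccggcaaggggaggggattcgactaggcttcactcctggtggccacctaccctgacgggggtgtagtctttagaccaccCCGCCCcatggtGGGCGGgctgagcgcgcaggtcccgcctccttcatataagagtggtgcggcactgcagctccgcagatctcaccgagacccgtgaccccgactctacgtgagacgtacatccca
Tubb4b: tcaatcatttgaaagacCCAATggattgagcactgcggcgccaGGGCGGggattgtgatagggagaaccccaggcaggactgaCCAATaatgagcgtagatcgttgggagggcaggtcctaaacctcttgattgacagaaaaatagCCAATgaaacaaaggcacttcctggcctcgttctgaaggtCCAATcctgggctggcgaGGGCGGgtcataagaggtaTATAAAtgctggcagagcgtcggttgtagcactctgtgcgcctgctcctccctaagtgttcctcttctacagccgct
Tuba8: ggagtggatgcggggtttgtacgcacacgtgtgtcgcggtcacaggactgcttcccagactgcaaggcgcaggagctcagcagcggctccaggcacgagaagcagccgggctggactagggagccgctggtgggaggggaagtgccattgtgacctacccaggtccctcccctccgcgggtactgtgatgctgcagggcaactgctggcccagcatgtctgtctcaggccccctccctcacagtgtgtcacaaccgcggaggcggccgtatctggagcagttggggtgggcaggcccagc
The Tubb4b window held 4 matches to the CCAAT box, 2 to the GC box and 1 to the TATA box. The Tuba4a window held 2 GC boxes and neither of the other motifs, and the Tuba8 window held none of the 3 motifs. Over the 6 genes, the CCAAT box was found in 3 windows, the GC box in 4 and the TATA box in 2. Over the 33469 RefSeq windows of 300 bases, the shares were 37.5%, 33.1% and 14.2%. None of the 3 motifs was thus common to the 6 genes that fell.

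Genes beside the tubulins on the chromosome did not pass the test. Within 20 kb of the 6 genes, 17 other tested genes were found, and the count that passed was 0. Their log2 differences lay between -0.19 and 0.45, and 3 were under an unadjusted p of 0.05, all of them higher, where 3.37% of all genes were. Stk16, which encodes a membrane-bound kinase and lies 1350 bases from Tuba4a, averaged 385 ± 47.6 after vinblastine and 372 ± 30.9 after saline (SD, n = 6 each). Its log2 difference was 0.04 ± 0.08 (limma adjusted p = 0.964).

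Genes that act on tubulin were examined next, from lists of the factors that degrade tubulin mRNA, fold tubulin, modify it or bind microtubules. Of 14 tested mRNA decay factors none passed, and their median log2 difference was 0.02. Scaper, which links TTC5 to the deadenylase, had a lowest value of 162, a median of 202 and a highest value of 221 after vinblastine, against 222, 258 and 299.9 after saline. The groups touched without overlapping, and the log2 difference of -0.36 ± 0.08 did not pass (limma adjusted p = 0.368). Ttc5 itself averaged 179 after vinblastine and 191 after saline, a log2 difference of -0.08 ± 0.07 (adjusted p = 0.935). Cnot4, named for the CCR4-NOT complex, had 0.21 ± 0.09 (adjusted p = 0.935).

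The tubulin folding list holds the chaperonin CCT, prefoldin and the cofactors that assemble dimers, and 20 of its 21 members were tested. None passed or was under an unadjusted p of 0.05, and the median log2 difference was 0.09. The cofactor Tbcb, with 0.16 ± 0.08, had the lowest p of the list (adjusted p = 0.935). Of 11 tested tubulin modifying enzymes none was under an unadjusted p of 0.05. The lowest p was that of Ttl, which adds tyrosine to the end of alpha tubulin, with 0.10 ± 0.06 (adjusted p = 0.935). Of 30 tested microtubule associated proteins and motors none passed, with 0.25 ± 0.09 for the plus-end binding protein Mapre3 (adjusted p = 0.935). Tppp3, a protein that promotes microtubule assembly, averaged 318 ± 69.3 after vinblastine and 418 ± 35.0 after saline, a log2 difference of -0.40 ± 0.13 (adjusted p = 0.850). Without replicate 6 it was -0.27. For mitosis and G2/M genes, of which 17 were tested, the median log2 difference was -0.01 and none was under an unadjusted p of 0.05.

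Outside the tubulins, the genes with the lowest p did not pass the threshold. They were picked for a low p, so groups that lie apart follow in part from that choice. Among genes with higher values, Polr3b, a catalytic subunit of RNA polymerase III, ranged from 150 to 164 with a median of 152 after vinblastine, against 112 to 133 with a median of 121 after saline. All 6 vinblastine animals lay above all saline animals, and the log2 difference was 0.30 ± 0.06 (limma adjusted p = 0.266). In the fit to all 82 arrays the same difference passed (adjusted p = 0.0110). The remaining genes of this kind were Adam15, a membrane-bound metalloprotease, with 0.53 ± 0.12 (adjusted p = 0.358), Vsir, an immune checkpoint receptor, with 0.33 ± 0.08 (adjusted p = 0.433), Lgals3, a galectin made by macrophages and stressed heart, with 0.55 ± 0.13 (adjusted p = 0.433), and Clcn3, a chloride-proton exchanger of endosomes, with 0.55 ± 0.13 (adjusted p = 0.539). Over all genes, 25 were higher with no overlap between groups, 0.221% of those tested.

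Among genes with lower values, Dnah7, a dynein heavy chain of the ciliary inner arm, averaged 40.7 ± 4.26 after vinblastine and 56.4 ± 6.04 after saline (SD, n = 6 each), with no overlap. The log2 difference was -0.35 ± 0.07 (limma adjusted p = 0.266). Dact2, a regulator of Wnt and TGF-beta signalling, was dim, with 27.9 ± 2.54 after vinblastine and 37.4 ± 2.04 after saline, and a log2 difference of -0.29 ± 0.06 (adjusted p = 0.328). A pair of class II histocompatibility genes, which present peptides to T cells, were next. RT1-Ba averaged 339.7 ± 59.1 after vinblastine and 519 ± 102 after saline, a log2 difference of -0.58 ± 0.13. RT1-Da averaged 577 ± 88.2 after vinblastine and 886 ± 194 after saline, a log2 difference of -0.59 ± 0.13. Neither passed (adjusted p = 0.368 for both), and for each 5 of 6 vinblastine animals were below all saline animals. Of 13 tested macrophage markers none passed, and their median log2 difference was -0.07. At an unadjusted p under 0.05, 1 was higher (3.37% of all genes were) and 2 were lower (1.67% of all genes were). The lowest p of the list were those of the monocyte receptor Cd14, with 0.68 ± 0.19 (adjusted p = 0.612), and of Csf1r, the receptor of macrophage colony-stimulating factor, with -0.31 ± 0.12 (adjusted p = 0.935). The summed intensity of the macrophage markers was 3007 to 4467 after vinblastine and 3085 to 5119 after saline, and the part of these cells in the class II values was not tested.

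No list outside tubulin had a member past the threshold, so the lists are described by their medians. The interferon response list had the most members under an unadjusted p of 0.05, with 10 of 26 tested, all higher, where 3.37% of all genes were. Without replicate 6 it was 7 of 26, where 2.62% of all genes were. Its median log2 difference was 0.25 with all arrays and 0.22 without replicate 6. Irf1, a transcription factor induced by interferon, averaged 310.1 ± 62.7 after vinblastine and 231 ± 36.1 after saline, a log2 difference of 0.39 ± 0.13 (limma adjusted p = 0.850). Isg15, a ubiquitin-like protein, averaged 336 ± 67.4 after vinblastine and 249.9 ± 47.5 after saline, a log2 difference of 0.40 ± 0.13 (adjusted p = 0.852). The chemokine Cxcl10 had 0.31 ± 0.10 (adjusted p = 0.892), with 5 of 6 vinblastine animals above all saline animals. Groups overlapped for each of these.

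None of the genes of inflammation passed the threshold, and some of their values moved with replicate 6. Of 19 tested NF-kappaB and acute phase genes 6 were higher at an unadjusted p under 0.05, where 3.37% of all genes were. Without replicate 6 it was 4 of 19, where 2.62% of all genes were. The median log2 difference was 0.15 with all arrays and 0.13 without replicate 6. Cebpb, a transcription factor of the acute phase, ranged from 241 to 957 with a median of 339.6 after vinblastine, against 154 to 329 with a median of 177 after saline. Its log2 difference was 0.87 ± 0.27 (limma adjusted p = 0.810) and 0.61 without replicate 6. Nfkbia, the inhibitor that NF-kappaB itself induces, had 0.53 ± 0.17 (adjusted p = 0.852). Among 14 tested glucocorticoid response genes, with a median of 0.29 and 0.18 without replicate 6, Ddit4, an inhibitor of mTOR signalling, had 0.45 ± 0.14 (adjusted p = 0.810) and Tsc22d3, a classic glucocorticoid target, 0.23 ± 0.09 (adjusted p = 0.935).

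For heart muscle stress, 17 genes were tested and their median log2 difference was 0.18 with all arrays and 0.03 without replicate 6. The 24 tested immediate early genes had medians of 0.14 and -0.01 in the same order. Nppb, the natriuretic peptide that strained ventricles release, ranged from 1827 to 10059 with a median of 2717 after vinblastine, against 2204 to 5377 with a median of 2856 after saline. The highest value was that of replicate 6, the other 5 vinblastine animals had at most 2934, and the log2 difference was -0.07 ± 0.35 (limma adjusted p = 0.984). The tumour necrosis factor family receptor Tnfrsf12a had 1566 in replicate 6, against 162 to 219 in the other 5 vinblastine animals and 150.4 to 204 in saline animals. The neutrophil gene S100a9 had 1139 in replicate 6, against 52.7 to 269.9 in the other 5 and 35.4 to 91.3 in saline animals. Of 12 neutrophil markers 4 were tested, with a summed intensity of 2105 in replicate 6, at most 593 in the other 5 vinblastine animals, and 267 to 382 in saline animals. The tubulins fell with and without this array: without it the same 6 genes passed, Tuba4a with a log2 difference of -2.79 (limma adjusted p = 7.44e-12), and 427 genes were under an unadjusted p of 0.05.

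**Figure D3:**
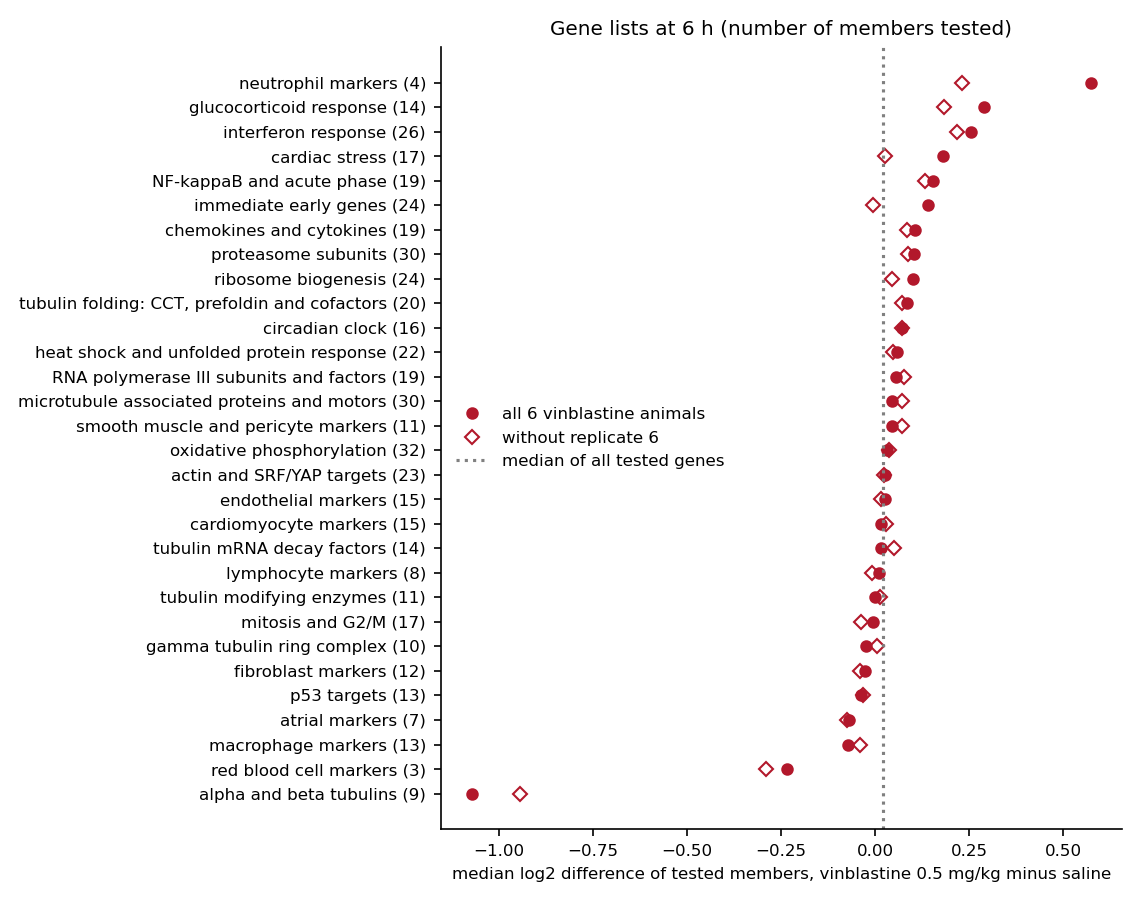
Median log2 difference, vinblastine 0.5 mg/kg minus saline at 6 h, of the tested members of each gene list, with all 6 vinblastine animals as filled circles and without replicate 6 as open diamonds. The alpha and beta tubulins lie at -1.07, while the medians for neutrophil markers, cardiac stress and immediate early genes move toward that of all tested genes without replicate 6.

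Other cell types of the heart were followed through their markers. Of 15 tested endothelial markers none passed and 3 were under an unadjusted p of 0.05, all lower, where 1.67% of all genes were. The median of the list was 0.03, so that its members did not share a direction. Emcn, a sialomucin of capillary and venous endothelium, had a log2 difference of -0.32 ± 0.10 (limma adjusted p = 0.704), and Sox18, a vascular transcription factor, -0.40 ± 0.13 (adjusted p = 0.852). The summed endothelial intensity was 20008 to 24719 after vinblastine and 16964 to 22944 after saline. The 12 fibroblast markers had a median log2 difference of -0.03, the 8 tested lymphocyte markers one of 0.01, and the 32 tested genes of oxidative phosphorylation one of 0.03. The 7 tested atrial markers had a median of -0.07, with a summed intensity of 1613 to 3841 after vinblastine and 1227 to 15470 after saline. In saline replicate 2 their median lay 2.23 above the saline mean on the log2 scale. The 3 tested red blood cell markers had a median of -0.23, and none passed. Without vinblastine replicate 6 it was -0.29. All 3 were then lower at an unadjusted p under 0.05, where 131 of the 11319 genes were. Tissue make-up was not tested.

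The dose was examined by setting vinblastine 0.5 mg/kg against 3 mg/kg at 6 h. The calls in this comparison depend on which arrays were used. As labelled, with 6 animals in each group, 0 genes passed the limma threshold and 1664 were under an unadjusted p of 0.05. Each group held 1 array that stood apart, replicate 6 at 0.5 mg/kg and replicate 1 at 3 mg/kg, and without both, a choice made after the data were seen, 921 genes passed: 369 higher at 0.5 mg/kg (3.26%) and 552 lower (4.88%). Without replicate 6 alone 463 passed, and without replicate 1 of the 3 mg/kg group alone 3. The fit to all 82 arrays as labelled gave 965. The 0.5 mg/kg animals are the same as in the comparison with saline. Both arrays were set apart by distances over all genes tested, so fits without them are no independent test of these genes.

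Tuba4a was about as low at 0.5 as at 3 mg/kg. It ranged from 554 to 817 with a median of 741 at 0.5 mg/kg and from 556 to 841 with a median of 661 at 3 mg/kg. The log2 difference was 0.12 ± 0.11 as labelled (limma adjusted p = 0.638), and 0.21 without both arrays, with a 95% interval of -0.01 to 0.42 (adjusted p = 0.282). Tubg1 was alike in this, with 0.16 and an interval of -0.01 to 0.33 without both arrays (adjusted p = 0.309). A missed threshold does not show equal levels. The upper bounds of these intervals, 0.42 and 0.33, limit how much higher both genes could be at 0.5 mg/kg by this fit.

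Other tubulins passed as lower at 3 mg/kg in the fit without both arrays, and not in the fits to the arrays as labelled. Tubb2a ranged from 240.3 to 506 at 0.5 mg/kg, and at 3 mg/kg from 187 to 256 in 5 animals and 713 in replicate 1. Without both arrays it was higher at 0.5 mg/kg by a log2 difference of 0.86 ± 0.11 (limma adjusted p = 0.000223). For Tubb4b the difference was 0.51 ± 0.07 (adjusted p = 0.000255), for Tuba8 0.48 ± 0.11 (adjusted p = 0.0112) and for Tubb5 0.42 ± 0.08 (adjusted p = 0.00452). With all 12 arrays these 4 differences were 0.47, 0.21, 0.55 and 0.24 and none passed. In the fit to all 82 arrays as labelled none passed either (limma adjusted p = 0.422, 0.808, 0.430 and 0.634 in the same order). Of the 9 tested alpha and beta tubulins, 4 passed as higher at 0.5 mg/kg without both arrays and none as lower. Of all genes, 3.26% passed as higher in that fit and 4.88% as lower.

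Genes of heart stress and neutrophil genes were lower at 0.5 than at 3 mg/kg without both arrays. Replicate 6, the 0.5 mg/kg animal where many of them were high, was set apart by its distance over all genes, these included. The p values without it are therefore not those of an independent test. Tnfrsf12a was at 162 to 219 in 5 animals given 0.5 mg/kg and 1566 in replicate 6, and at 1067 to 1725 at 3 mg/kg. Without both arrays its log2 difference was -2.79 ± 0.11 (limma adjusted p = 1.37e-08). For Nppb the 3 mg/kg group ranged from 7833 to 11526, above all 0.5 mg/kg animals but replicate 6, and the log2 difference without both arrays was -2.03 ± 0.14 (adjusted p = 1.10e-06). Otud1, a deubiquitinase, had -2.72 ± 0.18 (adjusted p = 8.62e-07), the calcineurin inhibitor Rcan1 had -1.60 ± 0.11 (adjusted p = 1.06e-06), and the matrix protein gene Ccn2 had -1.77 ± 0.18 (adjusted p = 3.80e-05). The neutrophil genes S100a9 and S100a8 had -3.01 ± 0.30 and -2.24 ± 0.21 (adjusted p = 2.95e-05 and 1.43e-05). By list, 12 of 17 cardiac stress genes passed as lower at 0.5 mg/kg, where 4.88% of all genes did. The same held for 12 of 24 immediate early genes, 9 of 14 glucocorticoid response genes, 9 of 19 NF-kappaB genes and 4 of 4 tested neutrophil markers. Of 12 neutrophil markers listed only these 4 met the filter, which counts bright arrays of any group. Such markers can enter through groups where they are high, so 4 of 4 is no separate support. Of 19 chemokine and cytokine genes 4 passed as lower and 1 as higher, and of 26 interferon response genes 2 passed as lower. In the fit to the 12 arrays as labelled none of these passed, and Nppb had -1.63 ± 0.33 (limma adjusted p = 0.101). In the fit to all 82 arrays as labelled, each gene named here passed, with limma adjusted p from 0.00230 (Nppb) to 0.0193 (Otud1).

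**Figure D4:**
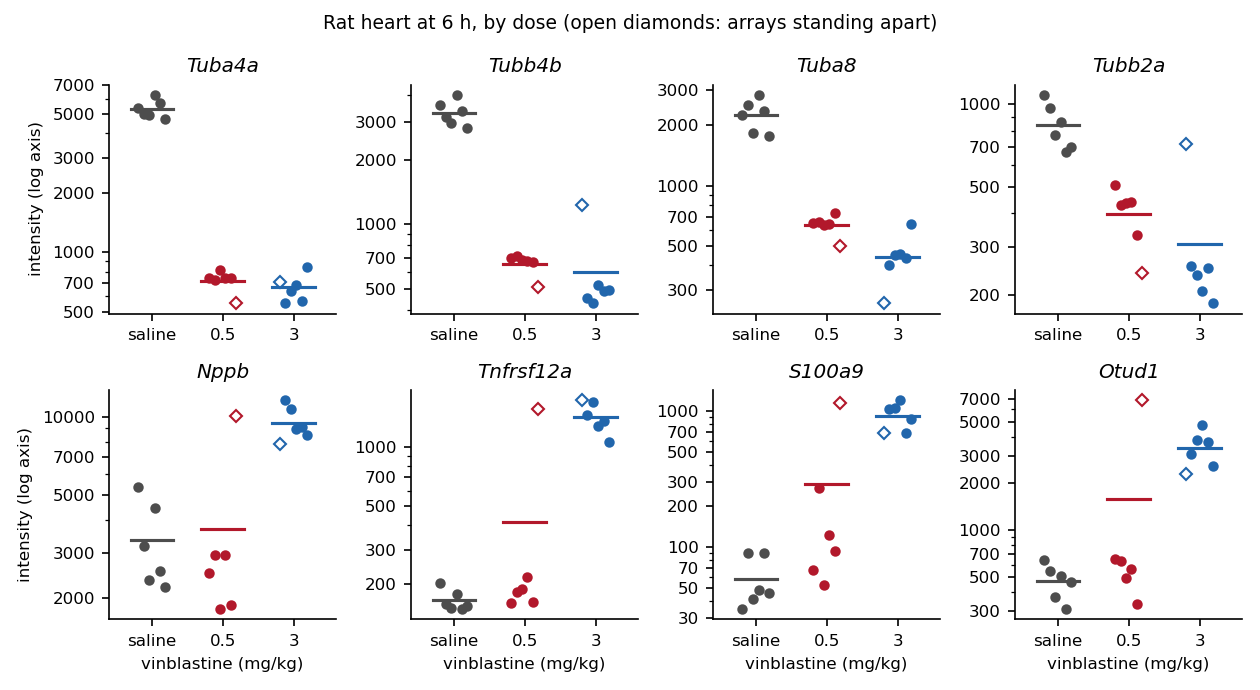
Intensity on a log axis at 6 h for 4 tubulins (top) and 4 stress or neutrophil genes (bottom) in each animal given saline, 0.5 mg/kg or 3 mg/kg of vinblastine, with lines for group means and open diamonds for replicate 6 at 0.5 mg/kg and replicate 1 at 3 mg/kg. The tubulins are low at both doses, and the stress genes are high at 3 mg/kg and, at 0.5 mg/kg, in replicate 6.

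At 24 h after the same dose, tubulin mRNA in most vinblastine hearts lay within or near the range of saline hearts, as measured in other animals than those of 6 h. At this time, vinblastine 0.5 mg/kg against saline gave 0 genes past the limma threshold and 430 under an unadjusted p of 0.05. Tuba4a ranged from 709 to 5641 with a median of 5039.7 after vinblastine, against 2958 to 6881 with a median of 5989.8 after saline. The value of 709 came from replicate 5, an array that stood apart (ratio 1.90) and, like replicate 6 at 6 h, lay nearest to colchicine 2 mg/kg, 6 h. Replicate 4 of that colchicine group in turn lay nearest to vinblastine 0.5 mg/kg, 24 h. Whether samples were exchanged was not tested, so values at 24 h that rest on replicate 5 may not be those of this treatment. The other 5 vinblastine animals had 2697 or more. The log2 difference at 24 h was -0.68 ± 0.41 as labelled and -0.23 ± 0.21 without replicate 5, neither past the threshold (limma adjusted p = 1.00 for both). Tubb2a at 24 h had 0.15 ± 0.38 as labelled and 0.58 ± 0.15 without replicate 5 (adjusted p = 0.799).

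The difference between the times was tested by subtracting the effect found at 24 h from that at 6 h. As labelled 0 genes passed, with 321 under an unadjusted p of 0.05. Tuba4a then had -2.19 ± 0.46 (limma adjusted p = 0.772). Without replicate 6 at 6 h and replicate 5 at 24 h, a choice made after the data were seen, 6 genes passed (0.053%), all more strongly lowered at 6 h, and they were the 6 tubulins of the 6 h comparison, whose arrays this test shares. Their values were -2.56 ± 0.24 for Tuba4a (adjusted p = 2.02e-06), -2.17 ± 0.23 for Tubb4b, -1.91 ± 0.24 for Tuba8, -1.52 ± 0.21 for Tubb2a, -1.29 ± 0.17 for Tubb5 and -1.02 ± 0.16 for Tubg1 (adjusted p = 0.00168). Leaving out replicate 5 at 24 h alone also gave 6. Both arrays were set apart by distances over all genes, the tubulins included, so these fits are no independent test.

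**Figure D5:**
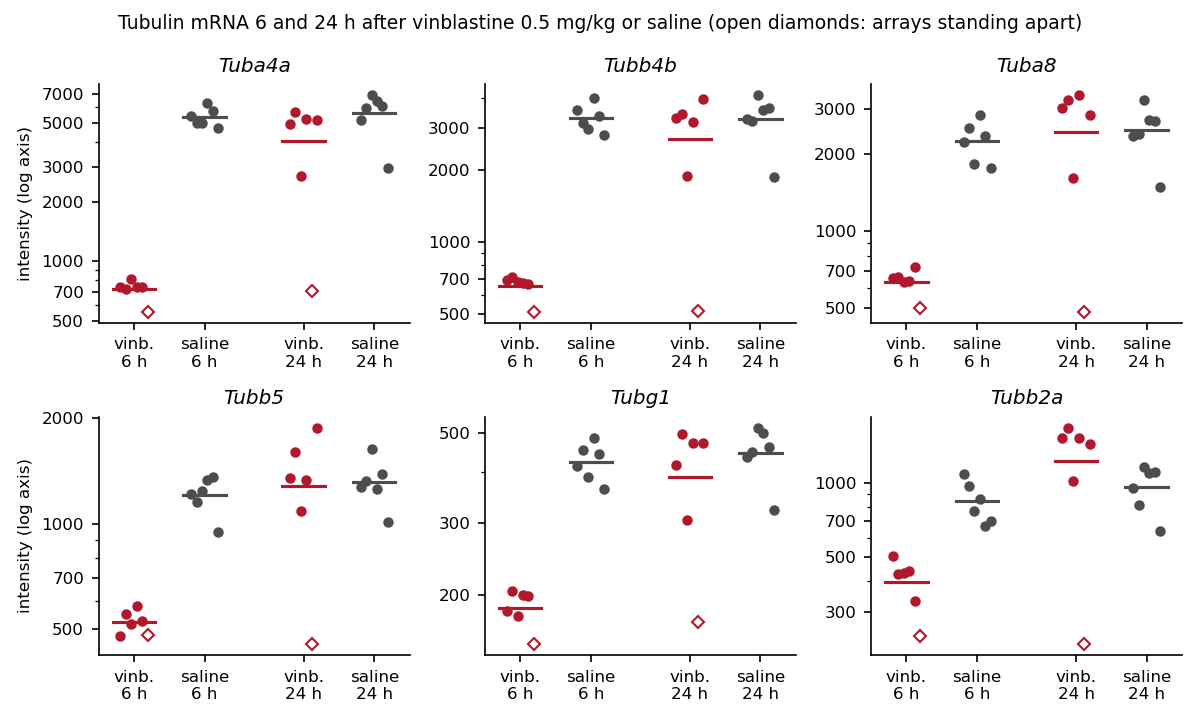
Intensity on a log axis for the 6 tubulins in each animal at 6 and 24 h, with vinblastine 0.5 mg/kg in red left of saline in grey at each time, lines for group means and open diamonds for the arrays standing apart. At 6 h all vinblastine animals lie below all saline animals, and at 24 h the vinblastine animals other than replicate 5 lie within or near the range of saline.

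Levels of Tuba4a in the other groups at 6 h place these values, with doses that differ between compounds and no comparison made. With vincristine the range was 4806 to 5729 at 0.1 mg/kg and 508 to 5966 at 1 mg/kg. With colchicine it was 650.1 to 5791 at 0.2 mg/kg and 502 to 4695 at 2 mg/kg. These ranges hold arrays that stood apart, replicate 3 of vincristine 1 mg/kg (ratio 1.83), replicates 1 and 6 of colchicine 0.2 mg/kg (1.45 and 1.41) and replicate 4 of colchicine 2 mg/kg (2.30). The highest value among the other animals was 4038 with vincristine 1 mg/kg, 892 with colchicine 0.2 mg/kg and 952 with colchicine 2 mg/kg. In both vinblastine groups the highest value was 841, with all animals counted.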

How the data were processed

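Heart RNA of 82 rats had been hybridised to Affymetrix arrays, and the values deposited are linear intensities, 1 per probe set and array, already normalised by the authors. The labels' protocols give the RNA and cRNA kits, and how probes were summarised is not given in the sources used here. Of 31099 probe sets, 57 were controls, 20826 carried 1 gene symbol, 436 several and 9780 none in the platform annotation. Each of 14217 symbols was represented by its brightest probe set, judged by the mean of the 82 arrays. Tests ran on log2(intensity + 16), for the 11319 genes that exceeded the 40th percentile of 5 or more arrays. The fits used limma 3.58.1 in R 4.3.3 on the arrays of the groups compared (residual df 10 and prior df 5.42 at 6 h), with Benjamini-Hochberg adjustment. The 82-array fit was an alternative, since arrays of other groups that stood apart widen its spread.

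An array stood apart if its root mean square distance to its own group's median profile, taken without it, was over 1.3 times that to another group. The members and lists were chosen with earlier results of these data known. Genes were named by rule: all that passed (at most 10 in each direction), tubulins and ring complex genes, the 2 lowest p of every other list, the 5 lowest p in each direction, and Polr3b. Some were left out for length. Nppb, S100a8, S100a9, Tnfrsf12a, Otud1, Rcan1, Ccn2, Apol3l1, Slc26a10, Usp39, Ttc5 and Stk16 were chosen after their values were seen or for their role. Of these, S100a9 and Rcan1 also met the rule, as the 2 lowest p of a list. On simulated data with 200 changed genes of 11319, the code recovered 56 of 66 changes of 0.5, 65 of 67 of 1 and 67 of 67 of 2 on the log2 scale. The simulated noise was normal and independent between genes, with no array standing apart. With 200 changed genes the adjusted threshold is also easier to reach than with few. These shares check the code and do not give the share of real changes that would be found here. Precision is set by the number of animals.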

Additional observations from a re-analysis of the deposited data

Results flagged for a closer look

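In 51 genes named for the 6 h comparison, each group of 6 animals was searched for a single value far from the others by Dixon's test, the gap of an extreme value over the whole range on the log2 scale. This marked 16 of 102 groups, and 13 of the 16 were the array of vinblastine replicate 6. Chance marks about 1 in 20 independent groups, but that is no rate for this set. The genes share the same arrays, and Nppb, S100a8, Tnfrsf12a, Otud1 and Ccn2 were chosen after their values were seen. Rcan1 and others were named for a low p.

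Replicate 6 had the lowest vinblastine values of Tuba4a (554, others 725 to 817), Tubb4b (508, others 666 to 709) and Tuba8 (499.5, others 634 to 726). It was also lowest in Csf1r, the receptor of macrophage colony-stimulating factor (133, others 211 to 245), and in the microtubule assembly protein Tppp3 (194, others 309 to 401). It was highest in Nppb (10059, others 1827 to 2934), Rcan1 (6202, others 1813 to 2336), Otud1 (6844, others 334 to 654) and Tnfrsf12a (1566, others 162 to 219). The same held for the muscle LIM protein gene Csrp3 (16739, others 9682 to 11399), for Lgals3 (767, others 482 to 561), and for the neutrophil genes S100a8 (313, others 27.0 to 66.0) and Lcn2 (612, others 179 to 239). The cause was not tested.

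Among saline hearts, replicate 6 had a Vsir value of 90.2 (others 114 to 122) and a Dnah7 value of 68.4 (others 51.8 to 56.2). Saline replicate 4 had a Dact2 value of 41.4 (others 35.9 to 37.5).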

How the results depend on the processing

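For vinblastine 0.5 mg/kg against saline at 6 h, 6 genes passed under each of the other pseudocounts, filters, normalisations, probe set rule, array weights and robust fit, and under all 12 fits that left out 1 array. Each of these held the same 6 tubulins. All 82 arrays gave 4 genes, of which 3 were among the 6, and leaving out the arrays with a description ending in _2 gave 5, with Tubb2a lost (adjusted p = 0.0626). In the 82-array fit without the 10 arrays standing apart, added after seeing the data, 10 passed, all 6 and Apol3l1, Slc26a10, Polr3b and Usp39, none of them a tubulin. For 24 h, leaving out 1 array gave 0 to 1, and the 82-array fit without the arrays apart gave 1. For 0.5 against 3 mg/kg, 965 passed with 82 arrays, 678 with array weights, 1094 with 82 arrays without those apart and 921 without both arrays apart, and leaving out 1 array gave 0 to 463. For the change at 6 h minus that at 24 h, array weights gave 1, the 82-array fit without those apart gave 6, as did leaving out both arrays apart, and leaving out 1 array gave 0 to 6.

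Signs turned for Nppb at 6 h, whose log2 difference ran from -0.41 to 0.085 when 1 array was left out, and for Stk16, with -0.0042 to 0.096 when 1 array was left out and -0.0054 under quantile normalisation. At 24 h, leaving out 1 array gave -0.38 to 0.18 for Tuba8 and -0.27 to 0.13 for Tubb5, and both were positive without vinblastine replicate 5, also in the 82-array fit without the arrays apart (0.18 and 0.13). These values were small beside their errors. With the replicate number as a block, 6 genes passed at 6 h and 0 in each of the other 3 comparisons. Same-numbered arrays did not deviate together as a rule (correlations -0.13 to 0.45 over the 6 numbers), so the numbers are not taken as pairs. No detection calls were used, so dim genes are limited by background.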
